A study of Rattus norvegicus with 10 samples.

Results

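Olfactory receptor genes were examined in the adult rat testis. Of 1168 rat olfactory receptor symbols (Olr followed by a number) in the deposited table, 111 had a mean of at least 0.1 FPKM over the vehicle and BDE-47 columns, and these 111 genes are described here. FPKM counts fragments relative to transcript length and to the size of the library. The genes were chosen by this mean level, so their levels are a description and were not tested. Where a symbol named several loci, the locus with the highest mean was used. The 111 genes lay in 92 distinct loci, because 33 of them shared 14 merged loci that name 2 to 4 receptors each. A merged locus has 1 value, which belongs to none of its receptors alone.

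The samples were testes of male Wistar rats at postnatal day 120. Their mothers, 7 per group, were fed tocopherol-stripped corn oil, the vehicle, or BDE-47 in the same oil with a daily dose of 0.2 mg for each kg of body weight. Dosing ran from day 8 of pregnancy until day 21 after birth. BDE-47 is a brominated diphenyl ether flame retardant. Each group had 5 libraries of poly(A) RNA, but the table gives 1 value per group and locus, so no spread between animals can be given, no difference was tested, and litters are not known. Library titles labelled BDE-47 carry a C code and those labelled vehicle an X code. Since the columns are not tied to library titles, every direction here follows the names of the columns and would be the opposite if they had been exchanged. In a whole tissue, fewer cells of a type and less RNA per cell cannot be told apart.

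Olfactory receptors are G protein-coupled receptors and form the largest gene family of mammals. In the nose, each sensory neuron uses a single receptor gene, and odorant binding activates the G protein Golf (Gnal), adenylyl cyclase Adcy3 and a cyclic nucleotide-gated channel. Their coding sequence usually lies in 1 exon, and the genes stand in clusters of close relatives, so reads can be shared between copies. Some of these genes are also transcribed in male germ cells. Human OR1D2 and mouse Or10j5 are the best known examples, with a proposed role in sperm navigation.

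Most receptor genes carried no signal in the testis table. Of the 1168 symbols, 683 (58.5%) were listed at 0 in both columns, against 4.89% of the 16106 other symbols. A further 374 lay above 0 but under the limit. The 111 detected genes were 9.50% of the family, whereas 86.4% of the other symbols reached the same limit. A listed 0 can be a failed estimate. The rat genes that now carry the symbols Or1d2 (Olr1519) and Or10j5 (Olr1576), looked up after the values were seen, were both listed at 0 in both columns. The 2 symbols just inside the limit were Olr202 (0.0994 FPKM for vehicle and 0.103 for BDE-47) and Olr1362 (0.0890 and 0.113). Just outside stood Olr1466 and Olr1482, which share a value of 0.123 and 0.0708 FPKM.

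The limit lies above the lowest receptor values in the table. Of 1078 loci that name 1 receptor and are 900 to 1000 bases long, the lowest value above 0 was 0.00425 FPKM for vehicle and 0.00494 for BDE-47, and 23 loci in each column lay within 15% of it. The limit of 0.1 FPKM was 23.6 times that lowest value in the vehicle column and 20.2 times in the BDE-47 column. The number of fragments behind a value is not known.

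Detected receptors were spread over 14 chromosomes of build rn5, which the deposited coordinates use. Chromosomes 3 and 1 hold the most receptor symbols, 296 and 280, and had 21 and 16 detected genes, or 7.09% and 5.71%. Chromosome 10 had 19 of 119 (16.0%), chromosome 15 had 12 of 46 (26.1%), chromosome 4 had 12 of 58 (20.7%) and chromosome 20 had 10 of 56 (17.9%). No symbol reached the limit on chromosome 2 (0 of 14) or X (0 of 5). Merged loci raise some of these counts, since the 12 genes on chromosome 4 lay in 7 loci and the 12 on chromosome 15 in 9.

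**Figure D1:**
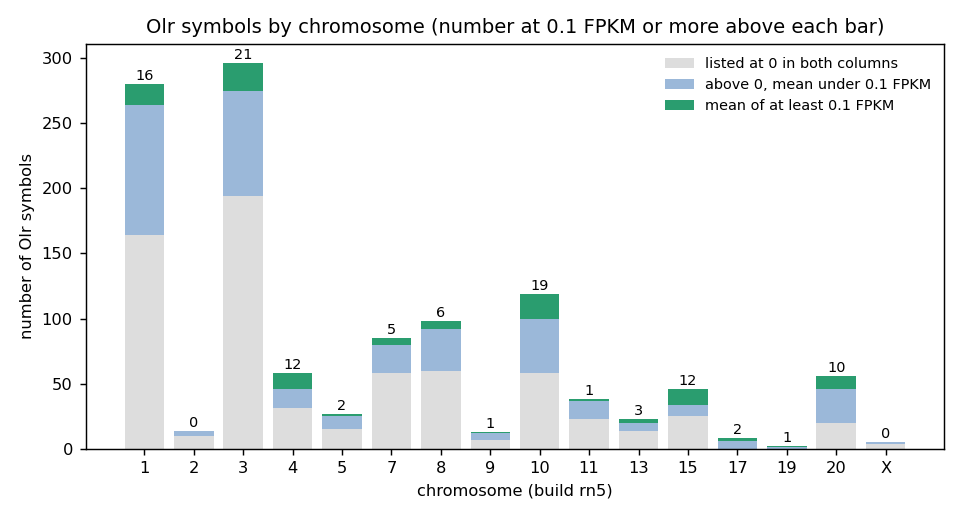
Number of Olr symbols on each chromosome of build rn5 (vertical axis), split into those listed at 0 in both columns, those above 0 with a mean under 0.1 FPKM, and the 111 with a mean of at least 0.1 FPKM, whose number stands above each bar. Chromosomes 3 and 1 hold the most symbols, while chromosome 15 has 12 detected of 46.

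Receptors fall into class I, related to the receptors of fish and named Or51, Or52, Or55 or Or56, and class II, which holds all other families. RefSeq names for the assembly GRCr8, used for names only, were found for all 111 genes, and 99 of them carry a current Or family symbol. Of 127 class I symbols in the table, 3 were detected (2.36%), against 96 of 982 class II symbols (9.78%). The class I genes were Olr63 (now Or51e1; 0.113 and 0.153 FPKM in the vehicle and BDE-47 columns), Olr136 (0.166 and 0.0872) and Olr202, all near the limit. They are named because they are few, after their values were seen. Within class II, family 8 had 15 detected of 123, family 2 had 14 of 117, families 1 and 5 had 11 of 92 and 11 of 155, and family 6 had 10 of 88. Family 11 had the highest share, 6 of 15, but 4 of these 6, Olr1615, Olr1616, Olr1617 and Olr1619, are 1 merged locus at 2.00 and 1.95 FPKM. None of the 31 symbols of family 9 was detected.

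Sequence upstream of 4 receptors is shown because these 4 stand for the patterns that follow: the highest level (Olr857), a cluster with lower BDE-47 values (Olr1107) and 2 clusters with higher BDE-47 values (Olr1584 and Olr1736). Each line gives 250 bases before and 50 bases after the RefSeq gene start on GRCr8, 5′ to 3′ on the gene's strand. Capitals mark the start codon at the gene start and any match, within the 250 bases before it, to the motifs named in the next paragraph. Matches after the start were not searched or marked. The windows lie at chr5:137503080-137503379 on the minus strand for Olr857, and on the plus strand at chr7:131448105-131448404 for Olr1107, chr13:88579573-88579872 for Olr1584 and chr20:1279151-1279450 for Olr1736.
Olr857: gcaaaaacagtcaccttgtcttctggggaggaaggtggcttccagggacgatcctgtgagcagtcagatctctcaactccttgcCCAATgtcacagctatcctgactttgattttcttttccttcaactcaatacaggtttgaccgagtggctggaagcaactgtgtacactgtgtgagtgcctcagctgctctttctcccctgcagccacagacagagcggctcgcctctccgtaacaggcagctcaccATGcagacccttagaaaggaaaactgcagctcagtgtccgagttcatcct
Olr1107: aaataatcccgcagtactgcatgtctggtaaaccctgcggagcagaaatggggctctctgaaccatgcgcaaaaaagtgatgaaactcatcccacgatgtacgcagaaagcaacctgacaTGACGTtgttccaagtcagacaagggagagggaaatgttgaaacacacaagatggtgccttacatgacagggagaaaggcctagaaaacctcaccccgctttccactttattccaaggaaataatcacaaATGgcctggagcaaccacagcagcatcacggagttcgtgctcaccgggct
Olr1584: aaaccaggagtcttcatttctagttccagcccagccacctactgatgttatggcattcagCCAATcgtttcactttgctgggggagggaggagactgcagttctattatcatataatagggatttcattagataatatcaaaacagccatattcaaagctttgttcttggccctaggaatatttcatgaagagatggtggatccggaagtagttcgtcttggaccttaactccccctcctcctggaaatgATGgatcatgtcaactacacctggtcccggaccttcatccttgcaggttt
Olr1736: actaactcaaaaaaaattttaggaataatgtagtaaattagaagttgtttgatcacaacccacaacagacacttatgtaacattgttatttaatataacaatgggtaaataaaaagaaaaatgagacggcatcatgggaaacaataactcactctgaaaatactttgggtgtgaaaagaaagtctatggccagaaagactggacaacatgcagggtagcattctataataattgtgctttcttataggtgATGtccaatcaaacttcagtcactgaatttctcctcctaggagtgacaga

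Of the 111 genes, 96 had such a window, and in 94 the gene start was an ATG, as in 99.5% of 982 windows of the whole receptor family and 10.5% of 27457 windows of all genes. The RefSeq start of a receptor is therefore mostly the start of its coding sequence, and the true start of transcription in testis is not given by these windows. Motifs were searched on both strands of the 250 upstream bases, and matches that overlap another motif were counted for each: TATAAA, which is bound by the general transcription machinery; TAATTA, a homeodomain site of the kind Lhx2 binds; CCAAT, which nuclear factor Y binds; GGGCGG, which Sp1 binds; TGACGT, the core of the cyclic AMP response element; and CCCNNGGG, the core of the site of the Olf/Ebf factors. TATAAA stood in 33 of the 96 windows (34.4%), TAATTA in 17 (17.7%) and CCAAT in 42 (43.8%). GGGCGG stood in 3 (3.13%), TGACGT in 4 (4.17%) and CCCNNGGG in 0. Over the whole receptor family the shares were, in the same order, 36.9%, 18.6%, 35.3%, 0.916%, 1.63% and 1.02%. Over all genes they were 13.1%, 4.94%, 34.3%, 32.4%, 7.25% and 11.0%. The median GC content was 36.4% in the windows of detected receptors, 34.0% over the family and 52% over all genes. Among the printed windows, the match in Olr857 and that in Olr1584 are CCAAT, the match in Olr1107 is TGACGT, and in Olr1736 none of the motifs stands in the 250 bases before the start. A match describes letters and is not a shown binding site.

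A few loci held most of the receptor signal. Of the 111 genes, 44 in 29 loci had a mean of at least 1 FPKM, 21 in 12 loci at least 5 and 7 in 4 loci at least 10. The median of the 111 was 0.468 FPKM, against 9.43 FPKM over the other symbols that reached the limit. Summed over the 92 loci, receptors held 272 FPKM for vehicle and 234 for BDE-47. Olr857 alone made up 39.6% and 27.9% of these sums, and without it the sums were 164 and 169.

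Olr857 (now Or13p4) was at 108 FPKM for vehicle and 65.3 for BDE-47, a difference of -0.72. A difference is the BDE-47 value of log2(FPKM + 0.1) minus the vehicle value, a scale that understates the change of low values. The locus of Olr857 spans chromosome 5:141170228-141456466. All 8 other loci with these same bounds were listed at 0 in both columns. Among them were Ebna1bp2, a ribosome assembly gene, and the receptors Olr855, Olr856, Olr858, Olr859, Olr860 and Olr862. A second locus that names Olr857 itself was among them too. Olr857 had 2 other loci in all, and neither was above 0 in either column. Whether the Olr857 value belongs to the receptor or to another gene of this interval was not tested.

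The next loci were merged. The locus naming Olr470 and Olr476, at chromosome 3:79888908-80021794, was at 19.3 FPKM for vehicle and 26.4 for BDE-47 (difference 0.45). The locus of Olr1364 and Olr1366, at chromosome 10:12207355-12302532, was at 22.9 and 15.03 FPKM (-0.61). The locus of Olr1396 and Olr1397, at chromosome 10:34475908-34501092, was at 16.0 and 13.9 FPKM (-0.20). These 3 loci lay within 2-fold between the columns. Some of these receptors also had a locus of their own with the same bounds, at a lower level. Olr470 alone was at 0.540 and 0.590 FPKM, Olr476 alone at 0 and 0.00592, and Olr1364 alone at 0 and 0.0278. How much of a merged value belongs to any 1 receptor was not tested.

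Loci that name a single receptor followed. Olr586, at chromosome 3:82618522-82630157, was at 7.46 FPKM for vehicle and 10.3 for BDE-47 (difference 0.46), and a second locus of that name and bounds was at 2.23 and 4.41 FPKM. Olr1637 (now Or6s1), at chromosome 15:31828160-31835513, was at 6.77 and 7.67 FPKM (0.18), while its second locus was at 4.79 and 2.46 FPKM. The second loci thus went the same way for Olr586 and the opposite way for Olr1637. The merged locus of Olr1231, Olr1234 and Olr1235, at chromosome 4:1408789-1477164, was at 7.46 and 6.23 FPKM (-0.26). Of the 111 genes, 39 had another locus of the same symbol, in 19 it also reached the limit, and in 10 of these 19 the difference had the opposite sign.

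**Figure D2:**
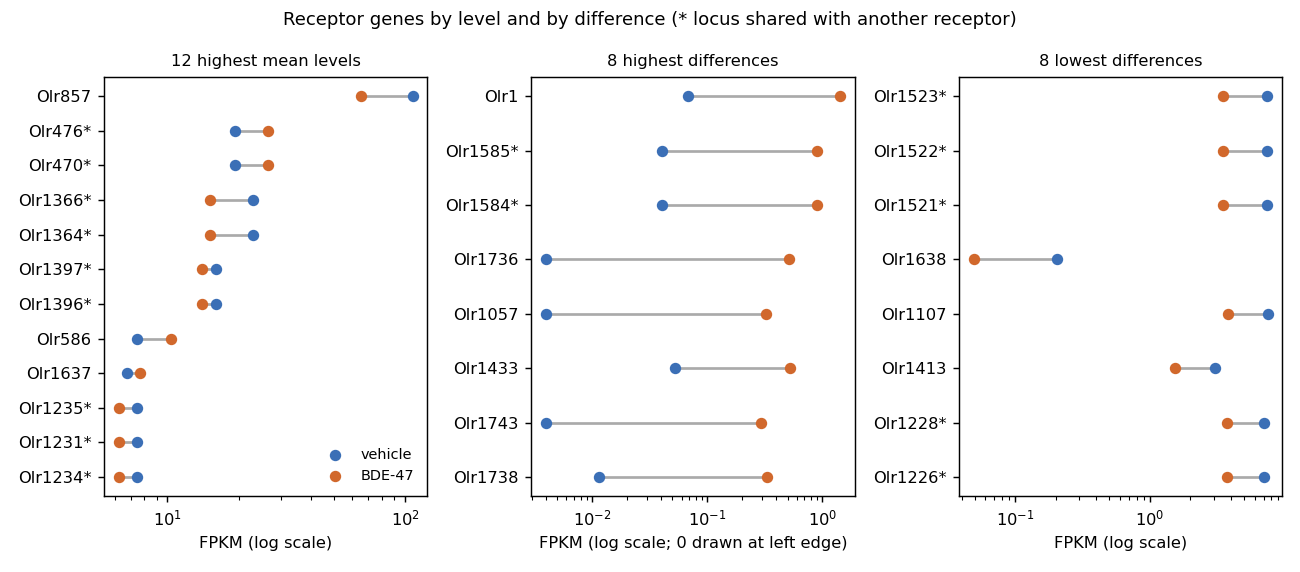
FPKM on a log scale in the vehicle (blue) and BDE-47 (orange) columns for the 12 receptor genes with the highest mean and for 8 genes at each end of the range of differences. An asterisk marks a locus shared with another receptor and values listed at 0 are drawn at the left edge. All 8 genes with the highest differences were under 0.1 FPKM in the vehicle column, so they had to differ to be included. Of the 8 with the lowest differences, 7 were above 1 FPKM in both columns.

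The level went with the extent of the locus. Of 952 symbols whose locus names 1 receptor and spans 850 to 1100 bases, about the size of the coding exon, 31 were detected (3.26%), with means from 0.101 to 0.478 FPKM. Of the 216 symbols with a longer or a merged locus, 80 were detected (37.0%). The detected genes with a longer locus of their own, 47 in number, had a median mean of 0.499 FPKM and those in merged loci 1.97 FPKM, against 0.136 FPKM for the short loci. The span can be that of a bundle of overlapping loci: 49 of the 92 loci shared their bounds with another locus, and 6 of them with a named gene outside the family. How much of the signal of a long locus falls on the receptor's coding sequence cannot be read from the table.

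Between the columns, most detected receptors differed little. By a 2-fold rule, 16 of the 111 genes were higher with BDE-47, 4 were lower and 91 were neither. Of all 14031 named genes that reached the same limit, 36.1% were higher by this rule and 4.48% lower. Over the 2083 with a mean under 1 FPKM these shares were 43.4% and 2.35%. The median difference of the receptors was 0.18, with quartiles of -0.24 and 0.73. The median of all named genes was 0.54 and that of the named genes under 1 FPKM was 0.74. The 2-fold rule is a rule of size and not a test.

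The sign of the receptors' median depended on scaling: it was 0.18 as deposited, -0.23 with median-of-ratios scaling (a shift of 0.52 log2 units was taken out) and -0.64 with quantile normalization, while the median of all named genes was 0.54, 0.04 and 0.08. The receptors' median lay below that of all named genes in these 3 settings and in the other 8 tried, with a gap between -0.27 and -0.72 (receptor median minus all-gene median). Of the 111 genes, 42 had the lower value in the BDE-47 column under all 3 scalings, 22 had the higher value under all 3, and 47 changed sign between them.

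**Figure D3:**
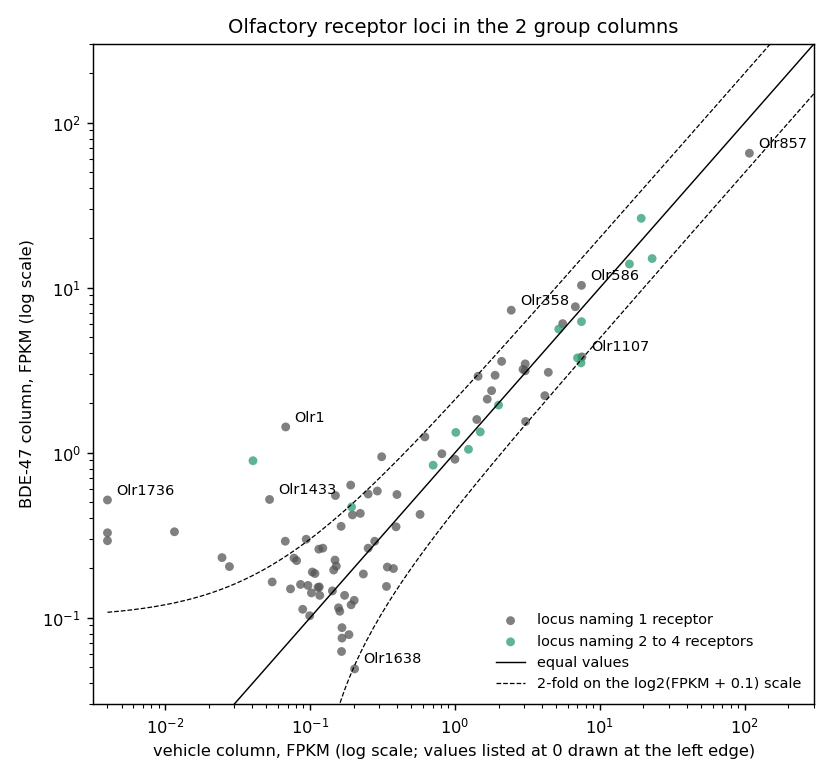
FPKM in the vehicle column (horizontal, log scale) and the BDE-47 column (vertical, log scale) for the 92 loci of the 111 receptor genes, with grey points for loci naming 1 receptor and green points for merged loci. The solid line marks equal values and the dashed lines a 2-fold difference on the log2(FPKM + 0.1) scale; most loci lie between the dashed lines, and among loci above 1 FPKM in both columns Olr358 lies above them and the Olr1521 locus below.

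**Figure D4:**
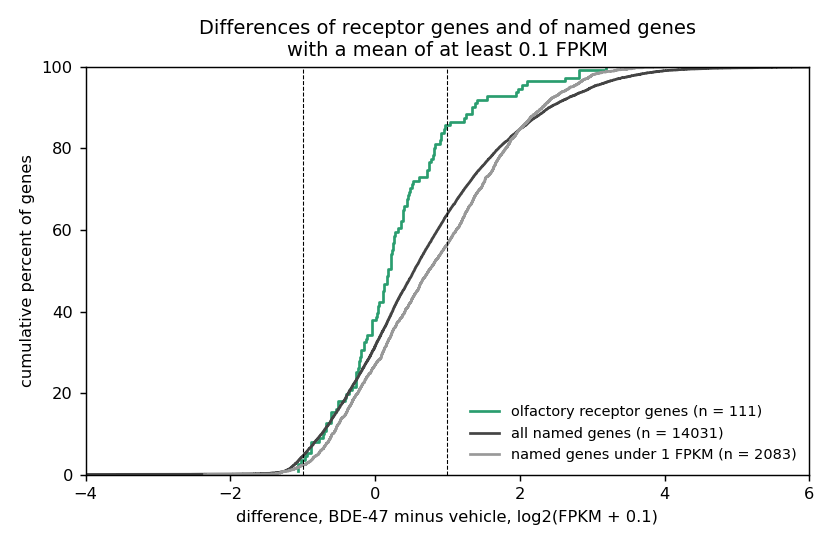
Cumulative percent of genes (vertical) by difference of BDE-47 minus vehicle on the log2(FPKM + 0.1) scale (horizontal), for the 111 receptor genes, all 14031 named genes that reached 0.1 FPKM and the 2083 of these under 1 FPKM. Dashed lines mark 2-fold; the receptors reach 50% at 0.18 and all named genes at 0.54.

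Counted by symbol, the difference went with the level. Of the 44 receptors with a mean of at least 1 FPKM, 1 was at least 2-fold higher and 3 lower, where 34.8% of named genes at that level were higher and 4.85% lower. The median difference of these 44 was -0.04, against 0.51 over named genes of at least 1 FPKM. The 44 genes lay in 29 loci, and 26 of the 44 were in merged loci, so some values count more than once. This median is the value of the merged locus of Olr1615, Olr1616, Olr1617 and Olr1619, which counts 4 times, so its sign rests on 1 measurement. Of the 67 receptors under 1 FPKM, 15 were higher (22.4%) and 1 lower, with a median of 0.38. Named genes under 1 FPKM were higher in 43.4% and lower in 2.35%, with a median of 0.74. A gene near the limit can pass it through 1 column only: 20 of the 111 reached 0.1 FPKM in the BDE-47 column alone and 5 in the vehicle column alone, or 18.0% and 4.50%. Of the named genes under 1 FPKM, 23.5% and 2.30% did so, and of all named genes 3.86% and 0.413%. Of the 16 higher genes, 12 reached it in the BDE-47 column alone, so they had to differ to be included. Over all 1168 symbols, with no limit, 128 were above 0 in the BDE-47 column only and 62 in the vehicle column only. Of the 295 above 0 in both, 178 had the higher value in the BDE-47 column and 115 in the vehicle column. The same counts over all named genes are not given, so these are not read as particular to receptors. Of named genes at the limit, 68.4% had the higher BDE-47 value. With no limit, the median difference was 0.08 over receptors and 0.41 over all named genes above 0 in at least 1 column.

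The largest differences were in receptors almost without signal in the vehicle column. Olr1, at chromosome 4:211883405-211905489, was at 0.0679 FPKM for vehicle and 1.43 for BDE-47 (difference 3.19). Its nearest named neighbour, Tmem52b, a membrane protein gene 5503 bases away, was at 0.0430 and 0.136 FPKM. Olr1433, at chromosome 10:44098151-44100248, was at 0.0526 and 0.521 FPKM (2.03). Trim58, its nearest named neighbour at 10623 bases, was at 0.00383 and 0.0132 FPKM. Olr1057, at chromosome 7:16571902-16572840, was listed at 0 for vehicle and at 0.328 FPKM for BDE-47. The only gene of the 16 with a mean of at least 1 FPKM was Olr358 (now Or5b104b), at chromosome 1:237224436-237229300, with 2.45 and 7.31 FPKM (1.54). Olr358 was picked out after its values were seen. After quantile normalization its difference was 0.98, just under 2-fold.

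The remaining higher genes outside the clusters described next were low, and they are named after their values were seen. Olr1643 (now Or4e2) was at 0.312 FPKM for vehicle and 0.946 for BDE-47 (difference 1.34), Olr584 (now Or5w15) at 0.191 and 0.637 (1.34) and Olr233 (now Or2d2) at 0.150 and 0.551 (1.38). These 3 reached the limit in both columns. Olr1118 (now Or7g24) was at 0.0675 and 0.291 FPKM (1.22), Olr396 (now Or1j8b) at 0.0278 and 0.204 (1.25) and Olr59 at 0.0941 and 0.299 (1.04), and these reached it with BDE-47 alone. They lay on chromosomes 15, 3, 1 and 8. A second locus with the name and bounds of Olr1643 went the other way, at 0.283 and 0.213 FPKM (-0.29).

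Of the 16 higher genes, 6 lay in 2 gene clusters, which were looked at in full after the values were seen. Receptor symbols less than 0.5 Mb apart were taken as a cluster. In the cluster at chromosome 20:3559403-3986793, near genes of the major histocompatibility complex, 13 of 20 symbols were above 0, and 11 of the 13 had the higher value in the BDE-47 column. That was so for 306 of the 485 receptor symbols above 0 (63.1%) and for 68.4% of named genes at the limit. Olr1736 (now Or12d2b) was listed at 0 for vehicle and at 0.518 FPKM for BDE-47, Olr1743 (now Or11a4) at 0 and 0.293, and Olr1738 at 0.0116 and 0.332. Their neighbours Olr1735, Olr1739 and Olr1742 stayed under the limit, with a listed 0 for vehicle and 0.0802, 0.0629 and 0.0915 FPKM for BDE-47. The nearest named gene outside the family, RT1-M3-1, a class I gene of that complex, lay 10848 bases from Olr1743 and was at 0.655 and 8.94 FPKM, a difference of 3.58.

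The second cluster, at chromosome 13:95994475-96972793, had 9 of 21 symbols above 0, all 9 with the higher value in the BDE-47 column. The merged locus of Olr1584 (now Or10aa1) and Olr1585, at chromosome 13:96618043-96640658, was at 0.0404 and 0.895 FPKM (difference 2.83), and Olr1587 (now Or10aa3) was at 0.0247 and 0.232 FPKM (1.41). The other 6 of the 9, among them Olr1588, Olr1589 and Olr1596, had a listed 0 for vehicle and stayed under the limit. Mnda, a nuclear protein gene of myeloid cells, lay 11861 bases from the locus of Olr1584 and was at 0.210 and 7.26 FPKM, a difference of 4.57. In the 250 bases before the start, Olr1584 had a CCAAT and Olr1736 had no match.

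Of the 42 receptors with the lower value in the BDE-47 column, 25 had a mean of at least 1 FPKM and 17 a lower mean. These are counts of symbols, and a merged locus counts once for each of its receptors. Of the 44 receptors of at least 1 FPKM, 26 were in merged loci. The merged locus of Olr1521, Olr1522 and Olr1523, at chromosome 10:74900975-74916433, was at 7.41 FPKM for vehicle and 3.51 for BDE-47 (difference -1.06). Its nearest named neighbour, Mks1, 14430 bases away, was at 5.43 and 5.74 FPKM (0.08). Olr1521 is now named Or4d2b and Olr1522 is now Or4d2. These 3 genes are 1 measurement and make up 3 of the 4 genes called lower. The other was Olr1638 (now Or5au1), at 0.203 and 0.0490 FPKM (-1.02). Just under 2-fold stood Olr1413 (now Or2z2; 3.07 and 1.55 FPKM, difference -0.95) and the merged locus of Olr1226 and Olr1228 (7.01 and 3.76, -0.88). Another locus of the name Olr1413 was at 2.25 and 0.779 FPKM, also lower. Loci with the bounds of the Olr1226 and Olr1228 locus that name either receptor alone were listed at 0 in both columns.

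The cluster of Olr1107 at chromosome 7:139072444-139250994 had 6 receptor symbols, all above 0, of which 5 had the lower value in the BDE-47 column. It was picked from 39 clusters with a detected gene after the values were seen. Over all 485 receptor symbols above 0, 306 (63.1%) had the higher BDE-47 value. Olr1107 (now Or8s10) was at 7.52 FPKM for vehicle and 3.81 for BDE-47 (difference -0.96). Olr1106 (now Or8s2) was at 0.574 and 0.423 FPKM (-0.37), Olr1108 (now Or8s8) at 0.186 and 0.0791 (-0.67) and Olr1111 (now Or11m3) at 0.337 and 0.155 (-0.78). The exception was Olr1104, at 0.00635 and 0.0130 FPKM. A locus named LOC680590, 5174 bases from Olr1107, was at 843 and 523 FPKM, a difference of -0.69. Lalba, the nearest named gene to Olr1111 at 5716 bases, went the other way, with 6.32 and 7.06 FPKM (0.16).

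The largest cluster lay at chromosome 3:79251437-85902552 and held 217 receptor symbols, of which 14 in 13 loci were detected. All 14 had the higher value with BDE-47, as deposited, by a median difference of 0.46, and 1 of them, Olr584, passed 2-fold. This depended on scaling: by median-of-ratios 8 of the 14 were higher and 6 lower, with a median of 0.10, and by quantile normalization 5 were higher and 9 lower, with a median of -0.26. Over all named genes that reached the limit, 68.4% had the higher BDE-47 value and the median difference was 0.54. The cluster includes Olr470 with Olr476, and Olr586, and its detected loci are relatives that can share reads. This cluster too was singled out with its values in view.

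**Figure D5:**
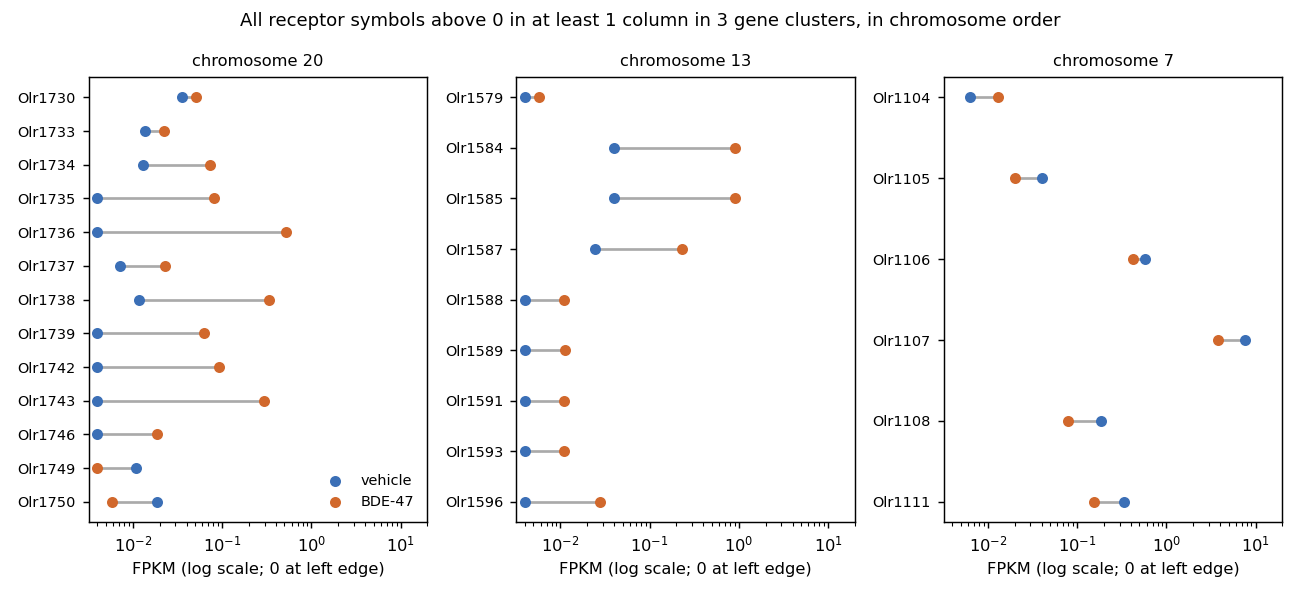
FPKM on a log scale in the vehicle (blue) and BDE-47 (orange) columns for each receptor symbol above 0 in at least 1 column in the clusters of Olr1736 (chromosome 20), Olr1584 (chromosome 13) and Olr1107 (chromosome 7), in chromosome order. Values listed at 0 are drawn at the left edge. The BDE-47 value was the higher one for 11 of 13 symbols on chromosome 20 and 9 of 9 on chromosome 13. It was the lower one for 5 of 6 on chromosome 7. These clusters were picked after the values were seen.

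Under all 3 scalings, Olr1, Olr1433, Olr1057, Olr1584 with Olr1585, Olr1736 and Olr1743 stayed at least 2-fold higher and Olr1521 with Olr1522 and Olr1523, and Olr1638, stayed at least 2-fold lower. These were 7 genes higher and 4 lower, and the 4 lower genes lay in 2 loci. All 7 higher genes had a vehicle value under 0.1 FPKM and so had to differ to be included. With log2(FPKM + 1) 6 of the 7 were under 2-fold, for example Olr1736 at 0.60, Olr1057 at 0.41 and Olr1743 at 0.37. Of the lower genes, Olr1638 reached the limit in the vehicle column alone and so had to differ too. With log2(FPKM + 1) the lower genes were also under 2-fold, with Olr1638 at -0.20 and the Olr1521 locus at -0.90. Olr857 was lower under each scaling, with a difference of -1.23 by median-of-ratios and -0.81 by quantile normalization. The small positive differences of Olr470, Olr476, Olr586 and Olr1637 depended on scaling: by median-of-ratios they were -0.06, -0.06, -0.04 and -0.33.

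The signal chain that receptors use in the nose was partly present. Of 15 genes listed, 14 were in the table and 13 reached the limit, of which 4 were higher with BDE-47 by the 2-fold rule and 1 lower, with a median difference of 0.75. Over all named genes that reached the limit, 36.1% were higher and 4.48% lower, with a median of 0.54, and the counts of the gene lists that follow are to be read against these shares. Gnal, the G protein of olfactory neurons, was at 15.5 FPKM for vehicle and 26.4 for BDE-47 in a locus that names another gene too, and Adcy3, its adenylyl cyclase, at 6.96 and 5.82. The channel subunit Cnga2, which forms the odour channel, was at 0.00404 and 0.00891 FPKM, while its partners Cnga4 and Cngb1 were at 5.43 and 3.18 and at 6.36 and 2.89. Cngb1 was the gene called lower (-1.11); it also serves the channel of rod photoreceptors. The 4 higher genes were Pde1c, a phosphodiesterase that breaks down cyclic nucleotides (5.17 and 29.7 FPKM), Arrb2, an arrestin (2.16 and 9.51), Ric8b, a chaperone of Golf (3.89 and 9.45), and Gnb1, a common G protein subunit (32.4 and 76.6). The value of Ric8b, like that of Gnal, is from a locus that names another gene too. Without merged loci the list's median was -0.38. In that setting a gene with another locus of its own that reached the limit was kept with the value of that locus.

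Genes that bring receptors to the cell surface were split. The transporters of the nose, Rtp1 and Rtp2, were near or at 0, with Rtp1 at 0.0132 FPKM in the vehicle column and listed at 0 in the BDE-47 column. Of 10 genes of this list, 7 reached the limit, 3 of them higher and none lower. Reep6 was at 553 and 284 FPKM, Reep2 at 108 and 93.1 and Reep1 at 17.5 and 29.0, all within 2-fold. The higher genes were Rtp4, an interferon-induced member of the family (0.611 and 10.7 FPKM), Reep5 (2.85 and 29.2) and Reep3 (0.727 and 7.01).

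Of 11 genes that act in receptor gene choice in olfactory neurons, 10 were in the table and reached the limit, 4 higher and none lower, where 36.1% of all named genes were higher. Emx2, a homeodomain factor, was at 45.6 and 22.9 FPKM, Lhx2, which binds receptor enhancers, at 3.84 and 2.79, and Kdm1a, a histone demethylase, at 17.5 and 21.9. The higher genes were Ldb1, a partner of Lhx2 (3.92 and 18.6 FPKM), Ebf1 (0.344 and 2.27), Eif2ak3, a kinase of the unfolded protein response (0.529 and 2.93), and Atf5, a factor downstream of it (4.17 and 12.6). All of these genes act in other tissues too.

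Other chemoreceptor families also had detected members. The limit was reached by 9 of 17 trace amine receptor symbols, 6 of 35 taste receptor symbols, 12 of 103 vomeronasal type 1 and 15 of 72 vomeronasal type 2 symbols. Vom1r70 had the highest level, at 904 FPKM for vehicle and 474 for BDE-47. Vom2r9 was at 189 and 269 FPKM, and the merged locus of Taar2 and Taar4 at 19.8 and 20.5. The bitter taste receptor Tas2r103 was at 1.19 and 10.8 FPKM. At least 2-fold higher were 0 trace amine, 4 taste, 4 vomeronasal type 1 and 6 type 2 receptors, and none of the 4 families had a member at least 2-fold lower. Of the 6 taste and vomeronasal signalling genes, 5 were in the table, 4 reached the limit and 2 were higher, Plcb2, a phospholipase (0.191 and 0.807 FPKM), and Gnai2, a G protein subunit (38.3 and 77.2).

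Some markers of the olfactory epithelium were near 0 and others were not. Of 10 markers, 9 were in the table and 6 reached the limit, none of them higher and 1 lower by the 2-fold rule. Omp, the lower one and the marker protein of mature olfactory neurons, was at 0.200 FPKM for vehicle and 0.0477 for BDE-47. Stoml3 was listed at 0 and at 0.0170 FPKM, and Gap43, of growing neurons, was at 0.0270 and 0.0424. Cyp2g1, a cytochrome P450 of the olfactory epithelium, was at 3.73 and 2.58 FPKM, Gng13, a G protein subunit, at 0.877 and 1.74, S100a5 at 0.779 and 0.824, and Obp1f, an odorant-binding protein, at 0.160 and 0.230. The summed level of the list, 21.2 and 31.9 FPKM, came mostly from Gnal.

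Markers of testis cell types were present and differed between the columns. Late spermatid markers had a summed level of 76131 FPKM for vehicle and 30042 for BDE-47, 5 of 6 at least 2-fold lower in the latter. Spermatocyte markers summed to 511 and 1033 FPKM with 3 of 5 higher, Sertoli cell markers to 413 and 2273 with 7 of 7 higher, and Leydig cell markers to 121 and 1327 with 6 of 6 higher. Macrophage markers summed to 18.2 and 390 FPKM with 6 of 6 higher, and blood markers to 41.6 and 132 with 3 of 3 higher. Liver markers, included because the extraction text names liver, summed to 1505 and 810 FPKM. Of these 7 genes, 6 reached the limit, 3 of them higher and 1 lower. Most of the sum was Serpina1, the lower one, at 1479 and 662 FPKM. The higher ones were Hp (23.1 and 142 FPKM), Cyp2e1 (0.774 and 2.81) and Ttr (0.142 and 1.67). Alb was at 0.920 and 0.633 FPKM, Apoa1 at 1.21 and 1.17 and Apoa2 at 0 in both columns. The part of these shifts in the receptor values was not tested.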

How the data were processed

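Per the labels' protocols, stranded poly(A) libraries were made from testis RNA. Per the submitters' processing notes, TopHat2 and Cuffdiff 2.1.1 were used on build rn5. Not given in the sources used here: how libraries were combined, the annotation, the strand setting and the handling of multiply mapped reads. The deposited values are log2 FPKM from the authors, 1 value per group and locus for 94827 loci, with a log2 ratio within 0.01 of the column difference. A log2 value of -10 was read as listed at 0. Depth per library is unknown.

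Name fields were split at commas, giving 17274 symbols. Deposited starts were raised by 1, since 96.4% of short receptor spans divide by 3 as end minus start. Calls took a difference of 1 on log2(FPKM + 0.1), a pseudocount chosen because the genes lie near 0.1 FPKM. The genes and lists were chosen with earlier results of these data known. The genes named were the 12 with the highest mean, the 8 with the highest and 8 with the lowest difference, those listed at 0 in 1 column, those next to the limit and the leading genes of each list; others are said to be chosen later, or are cluster neighbours. Python 3.11.15 with pandas 2.3.3 was used. Upstream windows are from RefSeq, GRCr8. Pseudocounts, scalings, limits and locus handling were varied.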

Additional observations from a re-analysis of the deposited data

How the results depend on the processing

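No value per library exists in the table, so leaving out replicates was not run. No paired analysis was possible because the columns carry no replicate and no test was made. Against 111 genes, 485 were above 0 with no limit. Against 16 genes at least 2-fold higher and 4 lower, log2(FPKM + 1) gave 2 and 0, log2(FPKM + 0.01) gave 26 and 8, and the authors' deposited table of log2 ratios gave 26 and 8 of the 108 genes above 0 in both columns. A smaller pseudocount widens, and a larger one narrows, the differences of low values by construction. Quantile normalization gave 6 higher and 35 lower, and median-of-ratios scaling gave 15 lower. A limit of 0.2 FPKM left 9 higher. Without merged loci 1 was lower, and with 1 value per distinct locus, an alternative chosen after seeing the data, 2 were lower, since 3 of the 4 lower genes share a locus. The receptors' median difference, 0.18, was reversed to -0.23 by median-of-ratios scaling and to -0.64 by quantile normalization. The signal transduction list's median, 0.75, was 0.55 with log2(FPKM + 1), 0.24 after median-of-ratios scaling, 0.16 after quantile normalization, 0.41 with no limit, 0.64 with loci summed, and reversed to -0.38 without merged loci. Except for pseudocounts and loci left out or joined, the cause was not tested. Depth is unknown, so how far a value near 0.1 FPKM can be trusted is not known.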
